A study of Mus musculus with 6 samples.

Results

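Stretches of DNA that kept an unusually large part of their methylation when the maintenance enzyme DNMT1 was knocked down were collected from reduced representation bisulfite sequencing (RRBS) of mouse embryonic stem cells. Autosomal cytosines with a methylation level in all 6 libraries (369208) were joined where neighbours lay at most 100 bp apart, and stretches of at least 5 cytosines, called clusters here, were kept. Of 22524 clusters, 3693 were methylated, with a mean level of at least 60% averaged over the 5 libraries other than the Dnmt1 knockdown. In 350 of these 3693 clusters the level after Dnmt1 knockdown was at least 35% of that average. These 350, with 2189 cytosines, are the retaining clusters, and the level after knockdown as a percent of the 5-library average is called the retained share. The remaining 3343 methylated clusters serve for comparison.

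The cells were E14 embryonic stem cells, and every library came from cells with short hairpin RNA (shRNA). The groups were control shRNA (shControl), shRNA against Tet1 and Tet2 together, against Dnmt1, against Dnmt3a, against Dnmt3b, and against Dnmt3a and Dnmt3b together. Each group was 1 library, so no difference between conditions has a replicate error or a p-value. RRBS reads CpG-rich DNA next to CCGG sites cut by MspI, and does not separate 5-methylcytosine from 5-hydroxymethylcytosine. The libraries listed 445016 (shDnmt1) to 604227 (shTet1/Tet2) cytosines, as levels without read counts, and the depth was not given. How far each target was depleted was not measured here. On mitochondrial DNA the mean level was at most 0.066% in any library, the value of shDnmt1.

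DNMT1 restores methylation on the new strand after replication, while DNMT3A and DNMT3B can add methylation to unmethylated DNA. When maintenance fails, methylation is diluted at each division. Transposable elements and satellite repeats make up much of the methylated DNA of the mouse. Certain retroviral repeats are known for keeping part of their methylation in embryonic stem cells that lack DNMT1.

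Sequences behind the clusters could be shown where the spacing and the 5-base contexts of at least 5 of their cytosines matched a 300-base RefSeq promoter window (GRCm38.p6, 250 bases before to 50 after a gene start). Of 350 retaining clusters 16 matched a window, 15 of them only on another chromosome, and the remaining one matched windows of more than one gene, so none was assigned to a gene. Of 3343 other methylated clusters 37 matched a window, 26 of them on the same chromosome and 11 only on another. The windows below belong to long noncoding RNA genes and show sequence that recurs in the genome. Capitals mark the CpG sites whose cytosines were read in the retaining cluster named.

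A230004M16Rik window (chr11:41710094-41710302, plus strand), matching the cluster at chr6:65211180-65211223: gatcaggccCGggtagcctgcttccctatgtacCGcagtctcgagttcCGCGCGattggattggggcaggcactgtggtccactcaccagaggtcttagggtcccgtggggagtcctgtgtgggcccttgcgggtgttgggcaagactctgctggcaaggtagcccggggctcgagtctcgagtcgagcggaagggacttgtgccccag
Gm12496 window (chr4:53403776-53403863, minus strand), matching 5 of 7 cytosines of the cluster at chr6:68542126-68542167: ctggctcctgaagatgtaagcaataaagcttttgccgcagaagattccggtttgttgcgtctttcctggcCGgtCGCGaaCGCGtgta
Gm33462 window (chr4:7133925-7134022, plus strand), matching 5 of 8 cytosines of the cluster at chr9:60307446-60307564: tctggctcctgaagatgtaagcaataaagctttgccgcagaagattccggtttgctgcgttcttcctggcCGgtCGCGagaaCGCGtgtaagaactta
Gm39254 window (chr8:112475703-112475756, minus strand), matching 7 of 8 cytosines of the cluster at chr6:84526884-84526928: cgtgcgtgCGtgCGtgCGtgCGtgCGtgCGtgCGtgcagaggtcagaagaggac

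The A230004M16Rik window held the matched pattern 2 times, 208 bp apart. Head-to-tail units of about this length are known from the promoters of mouse LINE-1 elements. The Gm12496 and Gm33462 windows share most of their letters, and resemble the end of a long terminal repeat of intracisternal A particles, a retrovirus-like family. No repeat annotation was used here, so membership in these families was not tested. The Gm39254 window is a short tandem repeat with a CpG in every unit. Cluster positions throughout are on mm9, and window positions on GRCm38.

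The levels of the retaining clusters follow in part from the way they were chosen and are given as a description. In shDnmt1 their levels ran from 22.2% to 89.2% with a median of 37.2%, and their retained share had a median of 42.5%. The medians in the 5 libraries that set the average were 91.2% in shControl, 91.2% in shTet1/Tet2, 91.1% in shDnmt3b, 87.3% in the shDnmt3a/Dnmt3b double knockdown and 86.1% in shDnmt3a. The other methylated clusters had a median of 17.0% in shDnmt1 and 85.7% in shControl, with a median retained share of 21.0%. Most retaining clusters thus also lost the larger part of their methylation. Against shControl, 324 of 350 met the rule for a fall, a mean change of 20 percentage points or more shared in direction by 80% or more of the cytosines. The choice used this contrast, in which 99.3% of all methylated clusters met the rule.

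**Figure D1:**
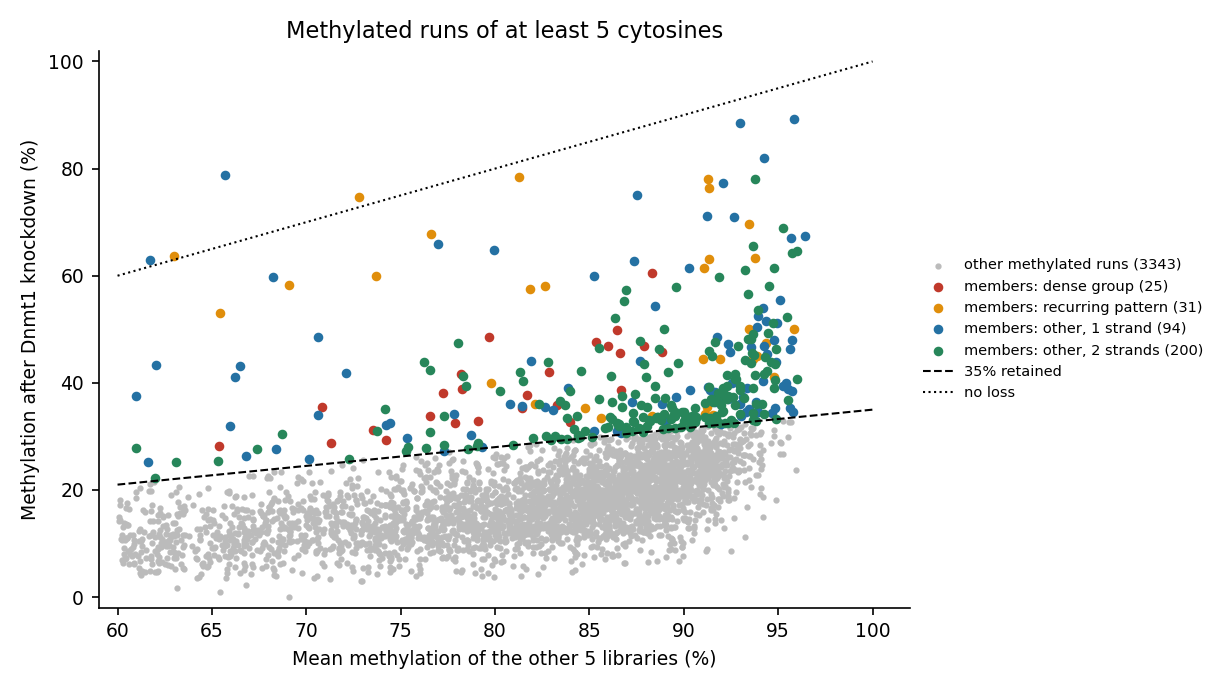
Level after Dnmt1 knockdown against the mean level of the other 5 libraries, both in percent, for each methylated cluster ("run" in the plot, and "member" where retained). Coloured points are the 350 retaining clusters by kind, grey points the other 3343, and the dashed line marks a retained share of 35%. The retaining clusters continue upward from the bulk of grey points without a gap, and a few reach the dotted line of no loss.

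No gap separated the 2 sets. The 3 retaining clusters nearest the limit lay on chromosome 4 (chr4:4322793-4322902), chromosome 9 (chr9:56734540-56734714) and chromosome 13 (chr13:42251777-42251845), with retained shares of 35.03%, 35.03% and 35.07%. Just below it were clusters at chr4:101996287-101996332, chr9:40900211-40900329 and chr2:156571610-156571772, at 34.98%, 34.96% and 34.96%. A retained share of at least 50% was reached by 101 clusters, of at least 70% by 30 and of at least 80% by 20, while 4 stood at or above 100%.

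**Figure D2:**
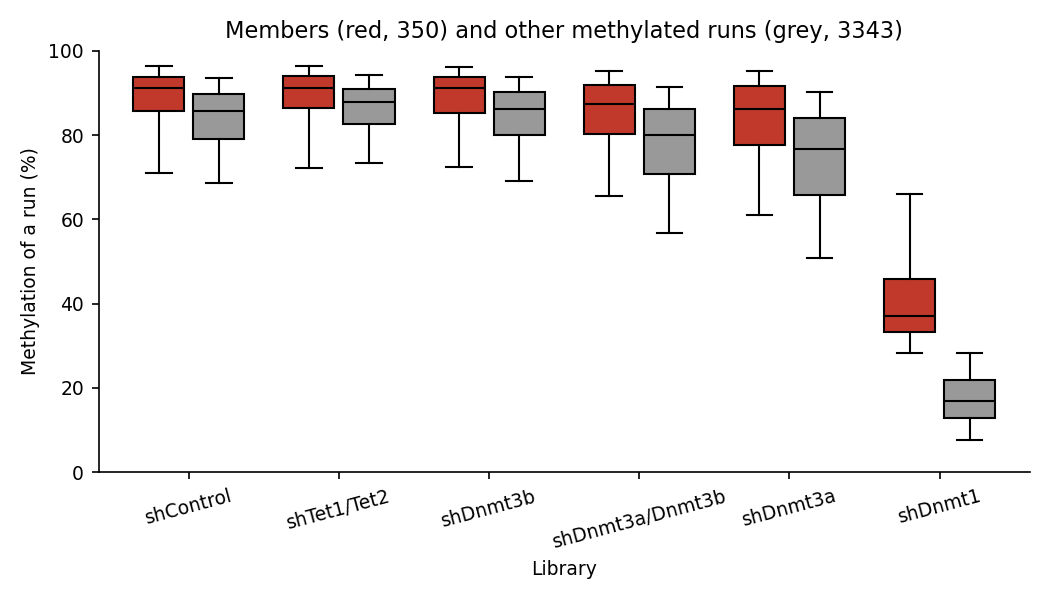
Methylation level in percent of the 350 retaining clusters (red) and the 3343 other methylated clusters (grey) in each library. Boxes span the quartiles with the median as a line, and whiskers the 5th to 95th percentiles. The sets overlap widely in 5 libraries, and in shDnmt1 the medians are 37.2% and 17.0%.

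Clusters that were nearly fully methylated were retained most often. The share of retaining clusters was 4.49% where the 5-library average was 60 to 70% (21 of 468), 5.38% at 70 to 80% (45 of 836), 6.71% at 80 to 90% (121 of 1802) and 27.8% at 90% or more (163 of 587). Over all methylated clusters the share was 9.48%. The median retained share of all clusters went the same way, from 17.99% in the lowest class to 29.4% in the highest. Both the classes and the retained share use the 5-library average, so this order is a description. The share varied little with the number of cytosines, from 9.79% of clusters of 5 cytosines to 7.87% of those of 10 or more.

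Reading on a single strand went with retention. Of 719 methylated clusters whose cytosines all lay on 1 strand, 136 were retained (18.9%, exact binomial interval 16.1 to 21.97%), against 214 of 2974 with cytosines on both strands (7.196%, 6.29 to 8.18%). The intervals cover counting error over clusters only. The median retained share over all clusters of these types was 22.8% and 21.8%, so the upper tail differed more than the middle. Retention of at least 80% was seen in 20 clusters, of which 19 were read on 1 strand. Retaining clusters held a median of 6 cytosines over 117 bp, and the others 6 over 123 bp, a median density of 5.45 and 4.84 per 100 bp. The lower quartile of the span was 47.2 bp in retaining clusters and 105 bp in the others.

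Base context differed as well. Cytosines followed by GG (CGG, the context that includes MspI sites) made up 40.4% of cytosines in retaining clusters and 49.8% in the others. The CGC context made up 23.7% and 19.5%. Within the retaining clusters, CGC cytosines stood at 48.0% in shDnmt1 and 88.1% in the 5-library average, a retained share of 54.5%. The corresponding shares were 45.8% for CGA, 44.5% for CGG and 43.6% for CGT. In the other methylated clusters CGC again had the highest share, at 23.2%, with 20.6 to 21.2% for the other contexts. The contexts were in the same order in both sets, with a wider range in the retaining one.

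A few single cytosines read as nearly fully methylated in every library, for a cause that was not tested. In retaining clusters 75 of 2189 cytosines (3.43%) stood at 95% or more in all 6 libraries, against 1 of 21044 in the other methylated clusters. Such a cytosine raises the mean of a short cluster in shDnmt1, so the contrast follows in part from the choice. They lay in 65 retaining clusters, whose median retained share was 65.4% with them and 58.5% from the remaining cytosines. Without them 47 of the 65 still passed the limit and 18 did not.

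The densest group of retaining clusters lay at the start of chromosome 9 (chr9:3000244-3038257, mm9), the end of the chromosome next to the centromere. The stretch was drawn around retaining clusters, as a chain of at least 3 with at most 10 kb between neighbours, so its retained share is no independent measure. It held 21 methylated clusters, all of them retained. Their mean level was 80.8% in shControl, 80.1% in shTet1/Tet2, 78.0% in shDnmt3a, 81.1% in shDnmt3b, 79.1% in the double knockdown and 38.9% in shDnmt1. In shDnmt1 they ranged from 28.2% to 60.4%, and their retained share from 38.9% to 68.4% with a median of 44.7%. The remaining cluster of the stretch had a 5-library average below 60% and was not eligible. Listed cytosines with the same strand and 5-base context lay most often 234 bp apart (65 of 485 pairs within 600 bp) and next most often 468 bp apart (42 pairs). The major satellite that forms pericentromeric heterochromatin of mouse chromosomes is known for a tandem unit of 234 bp. Reads of such a unit may come from many copies, and how the aligner placed them is not given in the sources used here. Of the 185 cytosines in these clusters, 168 were on the minus strand. Where plus-strand cytosines were listed, 1 to 3 per cluster, they kept 92.2 to 103%. The minus strands of the same clusters kept 31.0 to 47.7%. On the minus strand alone, chr9:3002971-3003088 (31.0%) and chr9:3026458-3027189 (34.5%) lay below the 35% limit. The cluster with the highest retained share, chr9:3006539-3006598, kept 68.4% in all and 42.2% on its minus strand.

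**Figure D3:**
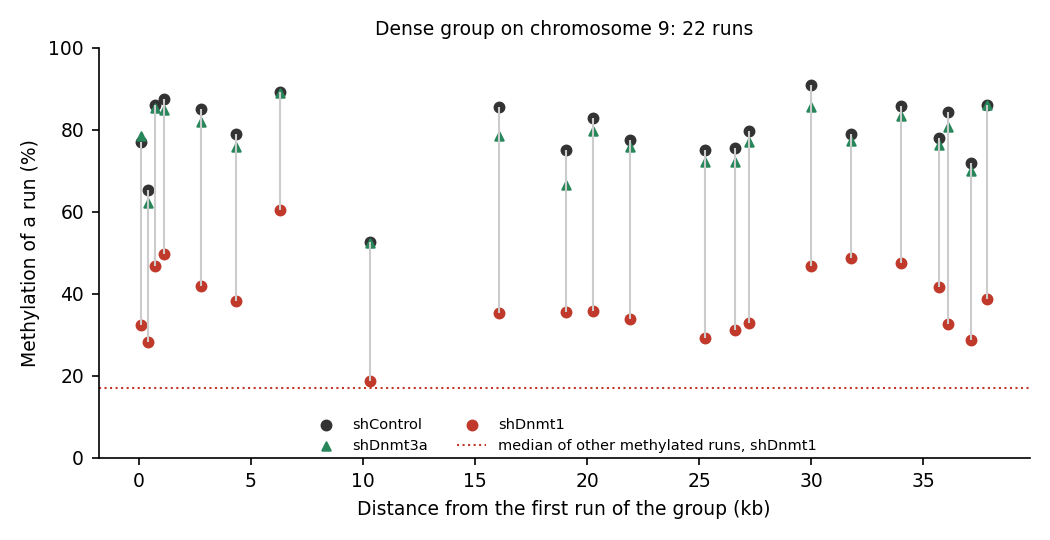
Methylation in percent of the 22 clusters in the chromosome 9 group, by distance in kb from its first cluster, in shControl (black), shDnmt3a (green triangles) and shDnmt1 (red). The dotted line is the shDnmt1 median of the other methylated clusters, 17.0%. In shDnmt1 the 21 retaining clusters range from 28.2% to 60.4%, and the selection rule itself places them above the dotted line.

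A second group lay on chromosome 2 (chr2:98502422-98507412), drawn in the same way, where the 4 methylated clusters were all among those retained. They averaged 84.7% in shControl, 83.6% in shTet1/Tet2, 82.9% in shDnmt3a, 85.3% in shDnmt3b, 82.8% in the double knockdown and 42.0% in shDnmt1. Their retained shares ran from 46.2% to 52.6%. The group holds the retaining cluster with the most cytosines, 23 over 650 bp (chr2:98506763-98507412). It read 86.8% in shControl, 86.8% in shTet1/Tet2, 84.5% in shDnmt3a, 89.2% in shDnmt3b, 86.0% in the double knockdown and 45.6% in shDnmt1. Here the commonest distance between like cytosines was 251 bp, with 9 of 64 pairs.

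Clusters of 10 or more cytosines numbered 17 among those retained and 216 among all methylated clusters. After the one on chromosome 2, the largest retained were 3 clusters of the chromosome 9 group with 22, 18 and 16 cytosines, and then a cluster of 14 cytosines at chr9:35112827-35113167. That one read 86.0% in shControl, 81.1% in shTet1/Tet2, 82.4% in shDnmt3a, 86.7% in shDnmt3b, 83.7% in the double knockdown and 38.5% in shDnmt1.

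Chromosome 9 had the highest share of retained clusters, 39 of 204 or 19.12%. Without the dense group it was 9.84%, within the 5.97 to 14.1% seen on the other autosomes. Retaining clusters were found on all 19 autosomes.

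Sequence patterns that recur between clusters were commoner among retaining than among other methylated clusters. A pattern was called recurring when at least 5 successive cytosines had the same spacing, strands and 5-base contexts in another cluster. This held for 36 of 350 retaining clusters (10.3%) and 50 of 3343 others (1.496%), beside 4.83% of all 22524 clusters, methylated or not. Of the 36 clusters, 31 lay outside the dense groups. With 4 successive cytosines, a length added once values were known, it held for 20% of retaining, 3.65% of other methylated and 20.1% of all clusters. Among the 30 clusters that retained at least 70%, 12 had a recurring pattern. Copies of a pattern did not always go together. In a family of 6 methylated clusters, the copy at chr17:39007736-39007769 kept 84.3% while the others kept 13.4 to 25.9%.

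The most frequent pattern among retaining clusters was the one of the A230004M16Rik window. Its 5 cytosines lie at 0, 24, 39, 41 and 43 bp from the first and span 44 bp. It occurred in 25 clusters on 14 chromosomes, 24 of them read on 1 strand. Of the 10 that were methylated, 9 were retained. The cluster on chromosome 6 shown above read 75.2% in shControl, 67.5% in shTet1/Tet2, 73.5% in shDnmt3a, 72.9% in shDnmt3b, 74.8% in the double knockdown and 74.8% in shDnmt1. Its shDnmt1 level thus lay within the range of the other libraries. A copy at chr1:45223035-45223078 did the same, with 63.6% in shDnmt1 and 58.2 to 67.3% elsewhere. The copy at chr14:124192504-124192547 read 78.3% in shDnmt1 and 76.2 to 85.5% elsewhere. The copy at chr7:100426461-100426504 stood below its range, at 67.9% against 72.3 to 79.2%.

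Copies of the pattern that were too weakly methylated to be eligible give values that the choice of clusters did not use, although the pattern itself was picked for its retaining copies. There were 15 of them, with a 5-library average from 6.09% to 56.2%. Their retained share ran from 20.5% to 99.9% with a median of 47.6%, and 9 of the 15 were at 35% or more. Among the 14 copies with an average of 20 to 60% the median was 44.7%, and 8 reached 35%. All 1621 other clusters of that level had a median of 18.4%, and 122 (7.53%) reached 35%. Of these, 364 were read on 1 strand, with a median of 18.6% and 50 (13.7%) at 35% or more. The copies differed widely, since 1 methylated copy kept 18.4% while the chromosome 6 copy kept 103%.

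**Figure D4:**
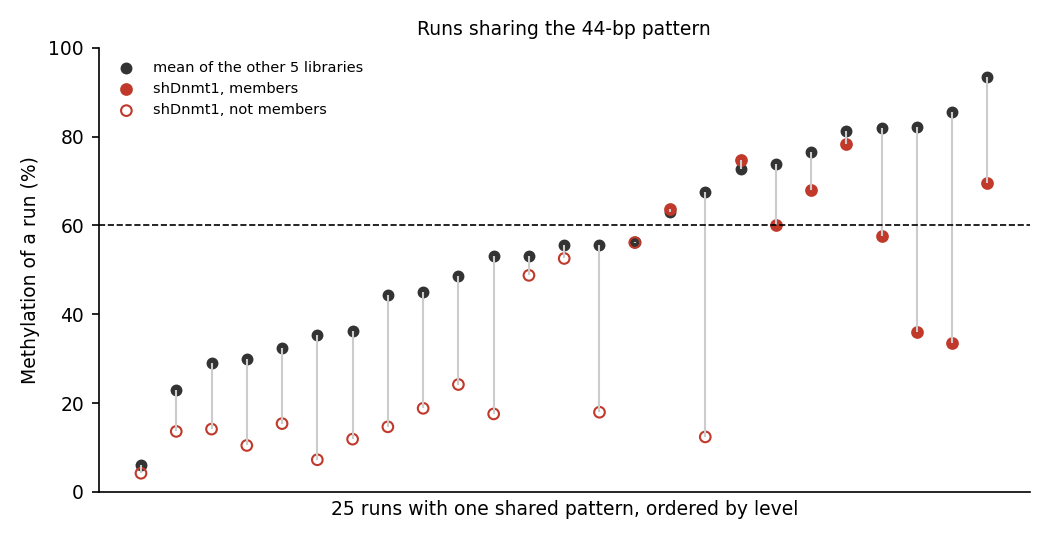
Methylation in percent of the 25 clusters that share the 44-bp pattern, ordered by the mean of the 5 other libraries (black). Red points are the levels after Dnmt1 knockdown, filled for the 9 retaining clusters and open for the others, and the dashed line is the 60% limit. Several copies, above and below the limit, show almost no loss while others fall to a small part of their level.

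Along the pattern the 5 cytosines were methylated unequally. Over the 25 copies the 5-library average was 45.0% at the first cytosine, which lies in the MspI site, and 71.0% at 39 bp, with 48.7 to 57.0% at the other three. The shDnmt1 means were 24.5% at the first cytosine and 48.5% at 39 bp, and the retained shares 54.3% and 68.3%. The highest retained share was 69.6% at 41 bp, where the 5-library average was 48.7%. At 24 and 43 bp the retained shares were 58.9% and 62.3%. The SD over copies in shDnmt1 was 17.2 points at the first cytosine and 34.8 points at 39 bp.

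The 10 clusters with the highest retained share included 4 copies of this pattern and others like it. A cluster at chr11:38722959-38723002 has the same 44-bp span and shares 2 of its contexts at the same distances. It read 56.9% in shControl, 60.2% in shTet1/Tet2, 58.8% in shDnmt3a, 66.7% in shDnmt3b, 66.1% in the double knockdown and 63.0% in shDnmt1. One of its cytosines (chr11:38722983, context ACCGC) stood at 100% in all 6 libraries. A cluster at chr13:50904411-50904454 kept 87.7%, at 59.9% in shDnmt1 and 65.6% in shControl. A span of exactly 44 bp was found in 22 retaining clusters (6.29%) and in 29 of the others (0.867%), beside 1.76% of all 22524 clusters.

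The highest retained share belonged to a cluster of 8 minus-strand cytosines at chr3:54615277-54615318. Its level was 70.4% in shControl, 66.9% in shTet1/Tet2, 59.5% in shDnmt3a, 67.2% in shDnmt3b, 64.4% in the double knockdown and 78.8% in shDnmt1, a retained share of 120%. It was the only one of these 10 with its highest level in shDnmt1. In shDnmt1 its cytosines ran from 65.2% to 100%. The remaining clusters of the 10 lay at chr1:73754392-73754422, chr3:14310699-14310732 and chr14:89095800-89095849. They were nearly fully methylated in shControl (92.9%, 95.7% and 95.6%) and stayed at 88.4%, 89.2% and 82.0% in shDnmt1.

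Clusters related to the Gm12496 window formed a smaller family. All 4 clusters with its recurring pattern were retained. They lay at chr3:21056686-21056733, chr4:53416653-53416665, chr6:68542126-68542167 and chr9:60270624-60270636, with 47.5%, 50%, 63.4% and 50% in shDnmt1 and 94.97%, 97.5%, 94.1% and 96.9% in shControl. The Gm33462 pattern was retained less uniformly, in 1 of 4 methylated clusters. Those not retained kept 34.2% (chr9:118053908-118053922), 30.5% (chr17:27487828-27487940) and 23.9% (chr13:106766875-106766918). The retained one, at chr9:60307446-60307564 and read on both strands, stood at 94.5% in shControl, 92.2% in shTet1/Tet2, 92.2% in shDnmt3a, 95.8% in shDnmt3b, 93.6% in the double knockdown and 44.4% in shDnmt1. Its strands kept similar parts, 49.9% on plus and 43.1% on minus. In all, 15 methylated clusters shared at least 4 cytosines with the Gm12496, Gm33462 or 1700112J05Rik windows, and 9 were retained (60%, exact binomial interval 32.3 to 83.7%). Of 29 that shared 4 with the A230004M16Rik or Gm36816 windows, 20 were retained (69.0%, 49.2 to 84.7%). These windows were picked because retaining clusters matched them, so the shares are no independent measure. They make up 9 and 20 of the 350 retaining clusters. The short tandem repeat matched 4 methylated clusters and 1 was retained, with 38.2% in shDnmt1 and 96.7% in shControl.

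No promoter window of a listed gene was matched by a retaining cluster. Of 14 listed germline genes, 3 had a methylated cluster in their window on the same chromosome. The clusters of Asz1, a germ-cell gene of the piRNA pathway, Dazl, an RNA-binding protein of germ cells, and Tex101, a sperm surface protein, retained 18.4%, 19.4% and 22.3%. Of 21 imprinted genes 16 had a window, and neither these nor 11 genes of the methylation machinery were matched by a methylated cluster. The match needs 5 listed cytosines and leaves most of a gene unread.

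Where both strands were read well enough to compare, retention was mostly seen on 1 of them. Bisulfite sequencing reads each strand of the DNA separately. There were 1033 methylated clusters with 3 or more cytosines on either strand, of which 67 were retained, and in 12 of these both strands kept at least 35%. The strand with more methylation had a median retained share of 52.4% and the other 27.3%. When clusters were chosen by the plus strand alone, 95 passed. Their minus strands kept a median of 21.6%, against 21.4% for all 1033 clusters, and 12 of 95 (12.6%) passed on the minus strand, against 9.58% of all. The choice by the minus strand gave 99 clusters with 22.3% on the plus strand, against 21.2% for all. Over the 1033 clusters the retained shares of the strands correlated at r = 0.11, a description over clusters of 1 library. Over the 104 clusters with 5 or more cytosines per strand r was 0.36, and 0.28 without the dense groups. Retention on one strand was seldom met by a retained share of 35% on the other, and for most of these clusters the name of a methylation-keeping region rests on 1 strand.

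**Figure D5:**
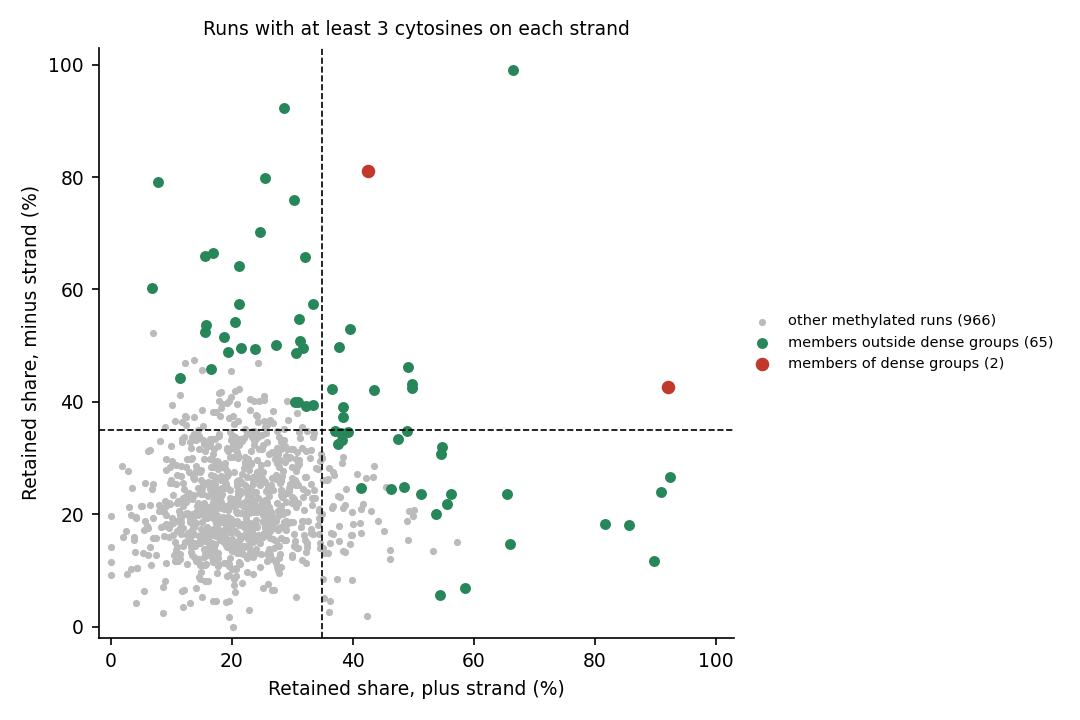
Retained share of the plus strand against the minus strand, in percent, for the 1033 methylated clusters with 3 or more cytosines per strand. Green and red points are the 67 retaining clusters, and dashed lines mark 35%. Only 12 lie beyond both lines, and most lie beyond one of them.

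The strands differed more in shDnmt1 than in the other libraries. The plus-minus difference had an SD of 12.8 points over the 1033 clusters in shDnmt1, against 8.48 in shControl and 8.60 to 11.1 in the other libraries, although mean levels were lower there. Among the 67 retaining clusters the SD was 33.5 points in shDnmt1 and 8.91 in shControl, and the choice favours such clusters. Without these 67 the SD in shDnmt1 was 9.87 points, within the range of the other libraries. The same was seen at single CpG sites read on both strands. At 61 CpGs in 45 retaining clusters the strands differed by a median of 27.4 points in shDnmt1 and 7.60 in shControl, and 19 differed by at least 50 points in shDnmt1, against 1 in shControl. At 539 CpGs of other methylated clusters the medians were 7.80 and 4.70 points. Read counts were not given, so the number of molecules behind these levels is not known exactly, and its part in the result was not tested.

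Of the 1033 clusters, 12 kept at least 35% on both strands, beside 95 that passed on plus and 99 on minus. The highest lay at chr17:21002712-21002832, with 95.2% in shControl, 92.3% in shTet1/Tet2, 93.2% in shDnmt3a, 94.9% in shDnmt3b, 93.2% in the double knockdown and 78.0% in shDnmt1. Its plus strand kept 66.5% and its minus strand 99.0%. One of its minus-strand cytosines (chr17:21002799) stood at 100% in all 6 libraries. In shDnmt1 the plus-strand cytosines of this cluster read 50%, 43.8%, 62.5% and 87.5%, and the minus-strand ones 90% or 100%. Levels on such coarse steps can come from few reads, which was not tested. A cluster at chr10:76077239-76077360 read 94.5% in shControl and 44.2% in shDnmt1, with 49.2% and 46.1% kept on the plus and minus strands. Its 7 cytosines stood between 28.9% and 52.1% in shDnmt1. The remaining clusters named for both strands were the retained match of Gm33462 and one each of the dense groups.

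Cytosines near the retaining clusters, which the choice did not use, kept more than those near other methylated clusters, but less than the clusters themselves. Within 1000 bp of a retaining cluster, 272 cytosines listed in all 6 libraries lay outside any cluster. They stood at 82.4% in shControl and 28.7% in shDnmt1, which is 34.8% of shControl. Near the other methylated clusters 2072 such cytosines stood at 78.8% and 16.9%, or 21.4%. Without the dense groups the share near retaining clusters was 28.2%, from 127 cytosines near 52 clusters. Cytosines within 100 bp that were missing from some library gave 32.1% (19 cytosines) near retaining clusters and 20.6% (252) near the others, and 29.0% (13) without the dense groups. With only cytosines at 60% or more in shControl, and without the dense groups, the 1000-bp shares were 29.0% near retaining clusters and 21.8% near the others. These cytosines stood at 89.9% and 84.7% in shControl, so they were not matched in level. Among the other methylated clusters the median retained share itself was 21.5% at an average of 80 to 90% and 26.8% at 90% or more. The part of level in the difference was not tested.

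Neighbouring clusters outside the dense groups were few. Of 19 methylated clusters that followed a retaining cluster within 10000 bp, 3 were retained (15.8%), beside 6.76% of those that followed another methylated cluster. Within 100000 bp 11 of 73 were retained (15.1%), beside 5.43%. All of these clusters were chosen by the same rule, so the shares are a description.

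The other knockdowns enter the choice only through the 5-library average. After Dnmt3a knockdown the retaining clusters differed from shControl by a mean of -5.24 ± 1.65 points (SD over 19 autosomes), and the other methylated clusters by -9.72 ± 0.49. The double knockdown gave -3.40 ± 0.97 and -6.22 ± 0.45, and Dnmt3b knockdown 0.05 ± 0.78 and 0.55 ± 0.38. Tet1 and Tet2 knockdown, which limits oxidation of 5-methylcytosine, gave 0.41 ± 0.90 in retaining clusters and 2.43 ± 0.36 in the others. After Dnmt3a knockdown 316 of 350 retaining clusters were lower than shControl, beside 3213 of 3343 other methylated clusters. Such a fall was thus not particular to the retaining clusters.

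The difference for Dnmt3a held within each level class but was smaller among highly methylated clusters. At an average of 60 to 70% the means were -12.6 points in retaining and -17.0 in other clusters, and at 70 to 80% -8.29 and -13.5. At 80 to 90%, the class with most clusters (1802), they were -6.67 and -7.62, and at 90% or more -2.38 and -3.42. For the double knockdown the lowest and the highest class gave -6.39 and -10.9, and -1.93 and -2.09. For Tet1 and Tet2 knockdown these classes gave 1.11 and 5.15, and -0.15 and 0.20. The sets differed in their mix of level classes, which enters the means over all levels. The rule for a fall was met by 8 of 350 retaining clusters after Dnmt3a knockdown (2.29%), beside 6.99% of all methylated clusters. In the double knockdown 0 of 350 were lower by that much, beside 1.65%, and after Dnmt3b knockdown 0, beside 0.0542%. With no replicates, these counts carry no test.

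The Dnmt3a falls were largest at chr7:25446724-25446856, chr17:3044121-3044169 and chr5:140177761-140177868. The chromosome 7 cluster read 71.0% in shControl, 73.8% in shTet1/Tet2, 40.1% in shDnmt3a, 65.4% in shDnmt3b, 54.5% in the double knockdown and 27.9% in shDnmt1. The chromosome 17 cluster stood at almost the same level after Dnmt3a (44.8%) as after Dnmt1 knockdown (43.3%), from 70.6% in shControl. The chromosome 5 cluster went from 77.1% to 54.0% and 25.7%. Gains of at least 20 points after Tet1 and Tet2 knockdown were met by 2 retaining clusters, beside 0.217% of all methylated clusters, and a fall by 1, beside 0.0271%. One of the gains, at chr4:32345282-32345325, went from 60% to 84.3%, and to 82.1% after Dnmt3b knockdown, the single retaining cluster past that limit there, beside 0.0542%. The other gain lay at chr4:38997189-38997238 (69.1% to 89.2%). The fall was at chr8:13795590-13795638 (92.9% to 72.0%).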

How the data were processed

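Genomic DNA of 6 libraries was cut with MspI, made into TruSeq libraries and converted with an EpiTect kit, per the labels' protocols. CASAVA 1.8, Bismark 0.10.1 and the build mm9 are listed, per the submitters' processing notes. The coverage minimum, trimming and handling of duplicate or multiply placed reads are likewise not given in the sources used here. The deposited values are methylation fractions from 0 to 1 with 3 decimals per cytosine, and were multiplied into percent. Cytosines with no level (67 to 135 per library) were left out. No counts or coverage came with them, so planned coverage minimums were not run, and thinly and deeply covered cytosines weigh alike.

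Clusters, averages and retained shares were computed in pandas 2.3.3 and NumPy 2.4.6 (Python 3.11.15). Exact binomial (Clopper-Pearson) intervals at 95% came from SciPy 1.17.1 and figures from matplotlib 3.10.9. The rule was checked on simulated levels, with planted clusters well above the limit and the others well below it. That check does not cover clusters near the limit. Dense groups are chains of at least 3 retaining clusters at most 10 kb apart. Named clusters are the 10 highest retained shares, the 3 on each side of the limit, the 5 largest, up to 5 kept on both strands, dense groups, up to 3 per other knockdown and direction, and clusters matched to windows. Members, lists and alternatives were chosen with earlier results of these data known. Positions are 1-based.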

Additional observations from a re-analysis of the deposited data

How the results depend on the processing

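Of 175 values recomputed under other settings for 11 results, 136 stayed within their spread. The spread was 1.5 times for the number of clusters, the binomial interval for their share, and 1 SD over autosomes for most others. For the strand result it was the width of the interquartile range (15.8 to 28.5%). For cytosines the choice did not use it was their gap to the other methylated clusters, 11.6 points. These 2 spreads are wide, so values staying within them say little. Settings on strands, CCGG sites, dense groups, recurring patterns, cytosines high in every library and cytosines outside clusters were added after the data were seen. The number of retaining clusters (350) moved to 1187 with at least 3 cytosines per cluster and 17 with at least 10, to 697, 222 and 101 at retained shares of 30%, 40% and 50%, to 82 without CGG and 130 without CCGG cytosines, to 67 with at least 3 cytosines on each strand and to 12 with 35% kept on each of them. Their share of methylated clusters (9.48%) moved to 12.3% at a gap of 50 bp, 7.87% with at least 10 cytosines, 11.9% at an average of at least 80%, 18.9%, 6.01% and 2.73% at those 3 retained shares, 8.54% with shControl as the only reference, 15.4% without CGG, 11.5% without CCGG, 6.49% with 3 cytosines per strand and 1.16% with both strands kept. Their mean shDnmt1 level (41.1%) moved to 34.3%, 46.2% and 55.8% at 30%, 40% and 50%. The density of listed cytosines, higher in retaining clusters by 0.616 per 100 bp in the median, rose to 5.34 at 50% retained, stayed within the spread but changed sign without CGG (-0.17) and with 3 cytosines per strand (-0.22), and reversed to -1.85 with at least 10 cytosines, where 17 clusters remain. The SD of this difference over autosomes was 2.16, and the cause was not tested. The CGG share difference of -9.37 points moved to -17.5 with both strands kept.

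Retaining minus other clusters differed by 4.49 points for shDnmt3a, which moved to 8.97 (at least 10 cytosines), 2.56 (average of at least 80%), 5.96 (50% retained), 6.23 (no CGG) and 6.08 (both strands kept). The double knockdown's 2.81 moved to 6.50 (at least 10 cytosines), 1.31 (average of at least 80%), 3.68 (shControl as reference), 3.68 (no CGG), 4.07 (no CCGG) and 3.72 (both strands kept). The Tet1 and Tet2 difference of -2.02 moved to -3.11 (at least 10 cytosines) and -1.13 (average of at least 80%). These 3 differences kept their sign under all 19 settings run. Under the settings run, the share kept by the strand that did not choose ran from 21.5% to 23.7%. That of cytosines the choice did not use ran from 29.0% to 34.8%. The 28.2% given above, for cytosines listed in all 6 libraries without the dense groups, was not among these settings and lies lower. No CGG value exists where CGG was left out or strands were merged. No paired analysis was possible because each group has 1 library, and none could be left out. Depth was not given, which limits every single cluster.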

Other observations

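Sequence outside the autosomes was not part of the clusters above. On unplaced or unlocalised contigs of mm9, 14 of 32 clusters were methylated by the same rule, and 7 of the 14 kept at least 35% after Dnmt1 knockdown. Their median was 88.1% in shControl and 30.5% in shDnmt1 over the 14 clusters, and the retained share ran from 15.1% to 66.6% with a median of 34.2%. On chromosome X, 10 of 81 methylated clusters (12.3%) were retained, with a median retained share of 22.3% over the 81. The single cluster on chromosome Y kept 25.3%.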
